A study of Mus musculus with 11 samples.

Results

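The heat shock proteins and chaperones of the cytosol were followed as a set of 48 genes in 9 role groups, chosen by name with earlier results of these data known: the HSP70, HSP110 and HSP90 families, their co-chaperones, J-domain proteins, BAG proteins, small heat shock proteins, the TRiC chaperonin and the heat shock factors. All 48 were found among the 20888 gene symbols of the deposited table, and 47 of them were among the 14347 genes past the filter on low values, the exception being Hspb3. Stranded poly(A) libraries were sequenced from lumbar spinal cord, taken from 10-month-old mice of the C57BL/6 strain. It had 3 nontransgenic mice (nTg), 3 mice with the mutant mitofusin MFN2-R94Q and 5 mice with both MFN2-R94Q and MFN1, a second mitofusin. The mice model CMT2A, a form of Charcot-Marie-Tooth neuropathy that affects long axons and comes from mutations in MFN2, a protein that fuses mitochondrial outer membranes. The sources used here give neither the promoter of the transgenes, nor the cells that carry them, nor the number of founder lines. All values are the deposited RPKM, reads per kilobase of gene scaled to library size.

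Chaperones hold newly made or damaged proteins in a state from which they can fold. HSP70 binds short hydrophobic stretches in a cycle driven by J-domain proteins, which start ATP hydrolysis, and by BAG and HSP110 proteins, which release ADP. HSP90 takes clients over from HSP70 through the bridging protein HOP, the product of Stip1, and small heat shock proteins hold unfolded proteins without ATP. Heat shock factor 1, the product of Hsf1, switches on the inducible members when unfolded proteins accumulate, by binding inverted repeats of the unit GAA in their promoters. Motor neurons are known for a high threshold of this response, and mutations of HSPB1, HSPB8 and DNAJB2 cause inherited motor or motor and sensory neuropathies in humans.

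The members' promoters were searched for heat shock elements. RefSeq promoter windows on GRCm38.p6, each from 250 bases before to 50 after a start site, were at hand for 38 of the 48 members. The motif was 2 neighbouring units, GAANNTTC or TTCNNGAA, each its own reverse complement, so that both strands are covered, and overlapping matches were counted apart. It lay in the promoter of 16 of the 38 members (42.1%), against 17.0% of 27025 genes. A stricter motif, both of these joined by a shared unit so that 3 alternating units follow each other with 2 bases between them, lay in 3 of the 38 (Chordc1, Hsph1 and Dnajb6), or 7.89% against 0.662% of all genes. Genes with several start sites count once if any window holds the motif. Windows from 120 bases before to 30 after the start are shown for the inducible pair Hspa1a and Hspa1b, for Hsph1, Chordc1 and Dnaja4, which also fell in MFN2-R94Q, and for Dnajb6, which holds 3 units and did not pass the test. Capitals mark the motif of 2 units, and longer capital runs are overlapping matches.
Hspa1a: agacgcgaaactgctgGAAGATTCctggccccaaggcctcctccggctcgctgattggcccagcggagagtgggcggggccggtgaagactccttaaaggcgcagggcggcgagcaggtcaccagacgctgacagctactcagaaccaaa
Hspa1b: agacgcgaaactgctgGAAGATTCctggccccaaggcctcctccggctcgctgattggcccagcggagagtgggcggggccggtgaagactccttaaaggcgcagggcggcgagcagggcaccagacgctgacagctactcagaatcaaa
Hsph1: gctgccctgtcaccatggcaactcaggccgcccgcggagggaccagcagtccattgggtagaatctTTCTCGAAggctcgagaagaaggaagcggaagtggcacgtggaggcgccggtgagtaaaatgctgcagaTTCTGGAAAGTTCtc
Chordc1: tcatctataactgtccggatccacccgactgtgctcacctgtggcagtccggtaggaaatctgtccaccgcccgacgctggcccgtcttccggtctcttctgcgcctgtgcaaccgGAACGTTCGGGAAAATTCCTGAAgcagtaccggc
Dnaja4: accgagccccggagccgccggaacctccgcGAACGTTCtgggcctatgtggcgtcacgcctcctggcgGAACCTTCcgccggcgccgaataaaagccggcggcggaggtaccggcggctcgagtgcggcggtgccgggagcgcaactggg
Dnajb6: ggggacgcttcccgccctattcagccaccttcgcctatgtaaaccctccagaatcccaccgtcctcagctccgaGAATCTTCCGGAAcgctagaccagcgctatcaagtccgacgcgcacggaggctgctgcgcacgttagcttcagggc
These lie at chr17:34972127-34972276, chr17:34959209-34959358 and chr5:149636286-149636435 on the minus strand and at chr9:18292147-18292296, chr9:54699439-54699588 and chr5:29735778-29735927 on the plus strand. The Hspa1a and Hspa1b windows differed at 2 of 150 bases, and each holds 1 match, 104 bases before the start. The long Chordc1 run begins 4 bases before the start, while the 2 matches of Dnaja4 begin 90 and 52 bases before it. A match is a stretch of letters and was not tested for binding.

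Library depth, recovered from the low values, was 30.6 to 72.0 M reads, and no group stood out in it. The first principal component of the tested genes held 39.6% of their variance. MFN2-R94Q replicate 2 scored 27.0 on it, replicates 1 and 3 of that group scored between 6.20 and 8.05, and the remaining 8 libraries scored -2.48 or less. Mfn1 and Mfn2 did not pass the test in any comparison (adjusted p of at least 0.13 and 0.56); the species of the transgenes is not given, so these genes do not check the labels. Markers of spinal cord cells were present in every library, whereas the sensory neuron genes Scn10a and Trpv1 and the skeletal muscle myosin genes Myh1, Myh2 and Myh4 were each under 0.1 RPKM in all. In MFN2-R94Q against nTg, limma called 17.9% of the tested genes, 7.5% higher and 10.4% lower. In that comparison 5 of 10 oligodendrocyte, 4 of 6 endothelial and 4 of 6 motor neuron markers were lower, as were 1 of 4 ependymal and 1 of 8 microglial ones. Of 8 astrocyte markers 2 were higher and 1 lower, and of 8 neuronal ones 1 was higher and 1 lower. None of the 6 tested mural and smooth muscle, 5 blood or 2 skeletal muscle markers passed with limma. At an unadjusted p under 0.05, 2 mural ones were higher and 0 of the others differed (15.9% of all genes were higher and 18.5% lower). The blood markers summed to 460 RPKM in MFN2-R94Q:MFN1 replicate 5 and to 147 to 253 in the other libraries with MFN1. Their sums were 196 to 260 RPKM in nTg and 116 to 247 in MFN2-R94Q. The part of blood in the chaperone values of that replicate was not tested. The 1 tested peripheral glia marker was called lower by limma. Of 14 glucocorticoid response genes 6 were higher, and of 9 immediate early genes 2, Arc and Jun, were lower. With MFN1 against MFN2-R94Q, all 8 microglial markers were higher, as were 7 of 10 oligodendrocyte, 3 of 6 endothelial, 3 of 8 astrocyte and 2 of 4 ependymal ones. Also higher were 1 of 6 motor neuron markers, the 1 tested peripheral glia marker and 2 of 9 immediate early genes. Lower were 1 of 8 astrocyte markers, 1 of 8 neuronal markers and 8 of 14 glucocorticoid response genes. Of all tested genes, 9.55% were called higher and 3.33% lower in that comparison. With MFN1 against nTg, 6 of 8 microglial markers and 1 of 8 astrocyte markers were higher, where 2.09% of all genes were higher and 0.223% lower. The microglial markers summed to 168 to 179 RPKM in nTg, 171 to 189 in MFN2-R94Q and 238 to 272 with MFN1, and the part of these shifts in the chaperone results was not tested.

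Chaperone genes with a call in MFN2-R94Q against nTg were mostly lower. Of the 47 tested members, limma called 17 lower and 3 higher in MFN2-R94Q at an adjusted p under 0.05, so 36.2% were lower against 10.4% of all tested genes, and 6.38% were higher against 7.5%. Because the set was chosen with earlier results of these data known, these shares describe it and are no independent support. The median log2 fold change of the 47 was -0.12, against 0.00 (as -0.0024) over all genes. HSP90 and HSP70 co-chaperones fell in 5 of 6 cases, HSP110 genes in 2 of 3, HSP70 genes in 3 of 8, J-domain genes in 2 of 8 and BAG genes in 2 of 6. Of the 2 heat shock factors, Hsf1 fell. No TRiC subunit passed, and the small heat shock genes went both ways, with 2 higher and 1 lower of 5. In bulk tissue, fewer cells of a type and less RNA per cell cannot be told apart.

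With MFN1 added, fewer members differed. Against MFN2-R94Q, the MFN2-R94Q:MFN1 mice had 8 of 47 members higher (17.0%, against 9.55% of all genes) and 1 lower (2.13%, against 3.33%). Against nTg they had 2 of 47 higher (4.26%, against 2.09%) and 0 lower with limma (0.223% of all genes; 2.31% were called in either direction), while 8 members were lower at an unadjusted p under 0.05, or 17.0%, against 5.49% of all genes. The comparisons share groups and so are not independent. The groups did not overlap for 19 members lower and 4 higher in MFN2-R94Q against nTg, where 35.7% of all genes did not overlap, 19.1% lower and 16.6% higher. With MFN1 against MFN2-R94Q this held for 9 higher and 1 lower (all genes 20.1%, with 13.1% higher and 7.05% lower), and with MFN1 against nTg for 6 higher and 1 lower (all genes 14.1%, with 9.03% higher and 5.05% lower). Of the 17 members that were lower in MFN2-R94Q, 12 remained called without MFN2-R94Q replicate 2, when 6.98% of all genes were lower; Bag2, Hsp90ab1, Hspa1a, Hspa1b and Ptges3 were lost. Of the 8 members that were higher with MFN1, 1 remained without that library, Cryab, though 2 members were then called higher and 5.08% of all genes. With only the nTg and MFN2-R94Q libraries in the fit, 10 members were lower and 1 higher, against 4.06% and 1.83% of all genes. Under quantile normalization 13 were lower and 3 higher in MFN2-R94Q, against 8.91% and 8.83% of all genes. Hsp90ab1, Hspa4, Hspa8 and Ptges3 were then lost from the lower calls. For MFN1 against none on the mutant background, the share of higher calls among all called genes went from 74.1% to 54.7% under quantile normalization and 61.1% under median centring, and the members called were 4 and 5 higher, with 1 lower in each.

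**Figure D1:**
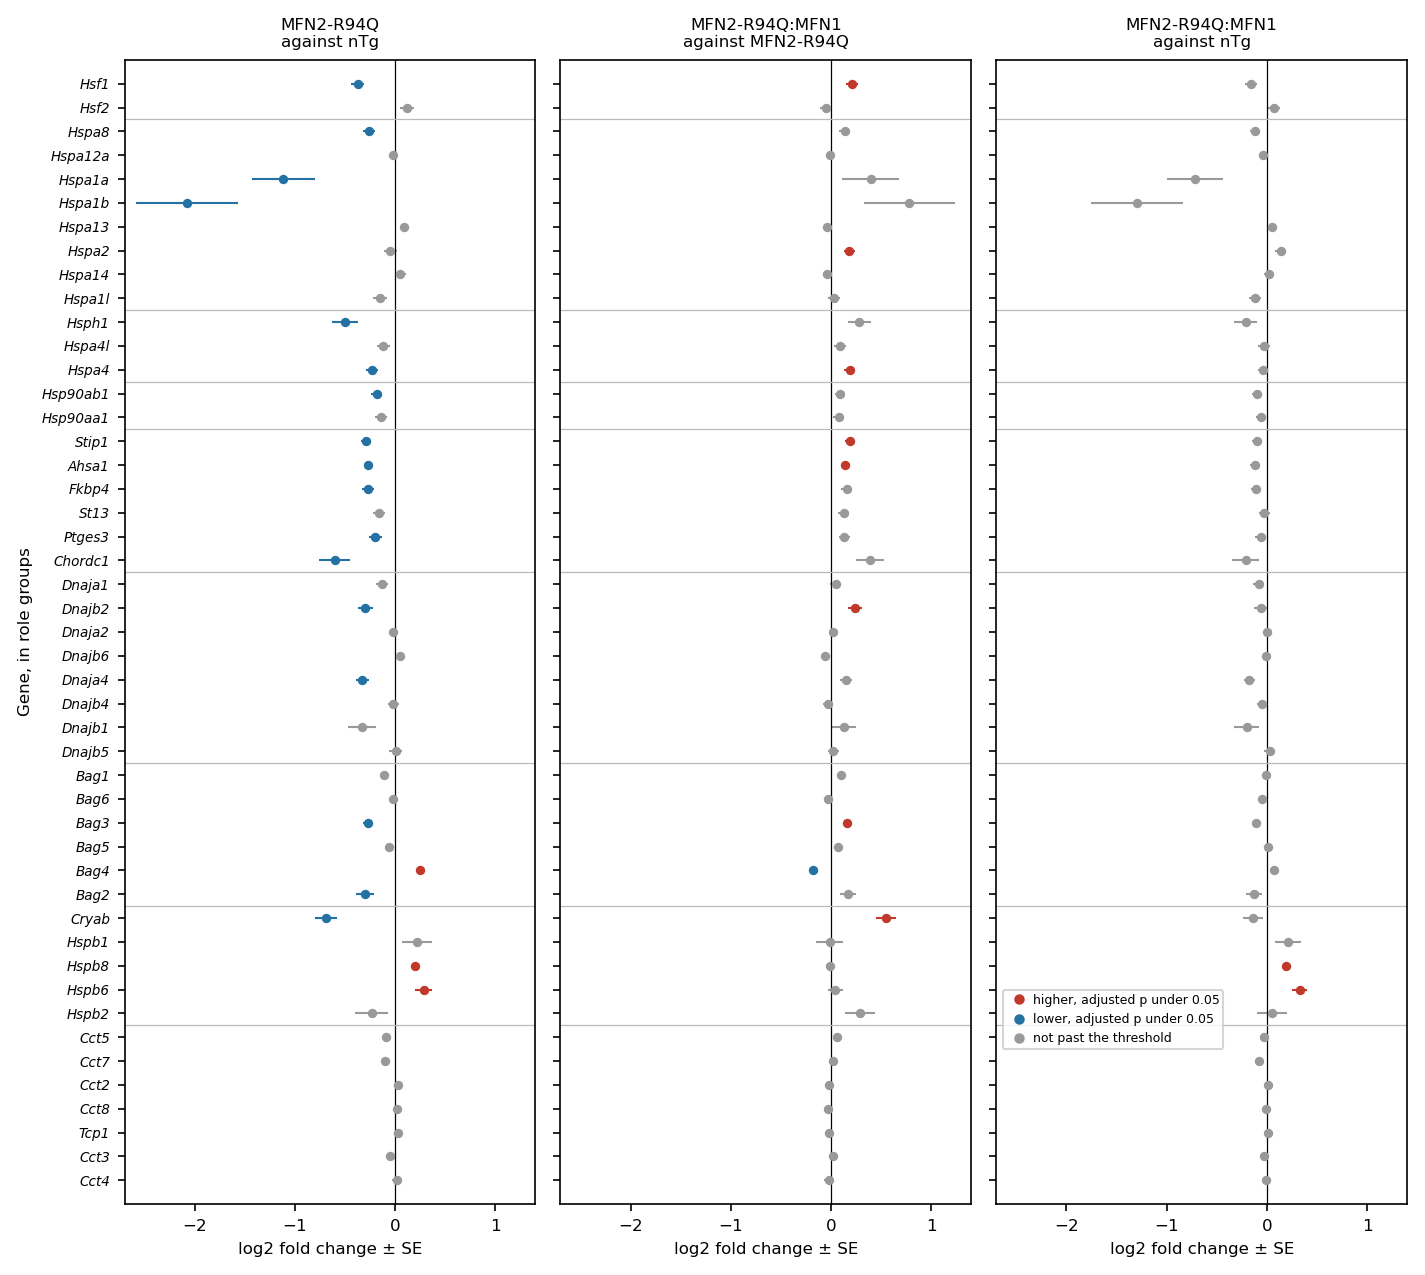
Log2 fold change on the log2(RPKM + 0.5) scale with its standard error for the 47 tested chaperone genes in the 3 comparisons (horizontal axes), with genes in role groups on the vertical axis; red marks genes called higher and blue genes called lower by limma. In MFN2-R94Q against nTg 17 genes are blue and 3 red, and in MFN2-R94Q:MFN1 against nTg Hspb6 and Hspb8 alone are coloured.

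In nTg spinal cord, levels per length spanned from Hspa8 to Hspb3. Hspa8, the constitutive HSP70, stood at 1028 ± 56.0 RPKM (SD, n = 3) and made up 27.7% of the summed level of the 48 genes. It was followed by Hsp90ab1 at 537 ± 21.5 and Hsp90aa1 at 412 ± 19.1, the constitutive and the inducible HSP90, and by Cryab at 157 ± 11.4. These 4 genes held 57.4% of the summed level, and none of the 4 overlapped its neighbour in the order. Below them the order from Stip1 (96.9 ± 6.09) through Ahsa1, Cct5 and Fkbp4 to Hsph1 (74.0 ± 7.04) held neighbours whose ranges overlapped each other. At the low end Hspa1l stood at 3.42 ± 0.248, Hspb2 at 0.486 ± 0.202 and Hspb3 at 0.105 ± 0.0377 RPKM. With its 781 bases, Hspb3 amounted to between 1 and 10 reads per library, too few for a comparison.

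**Figure D2:**
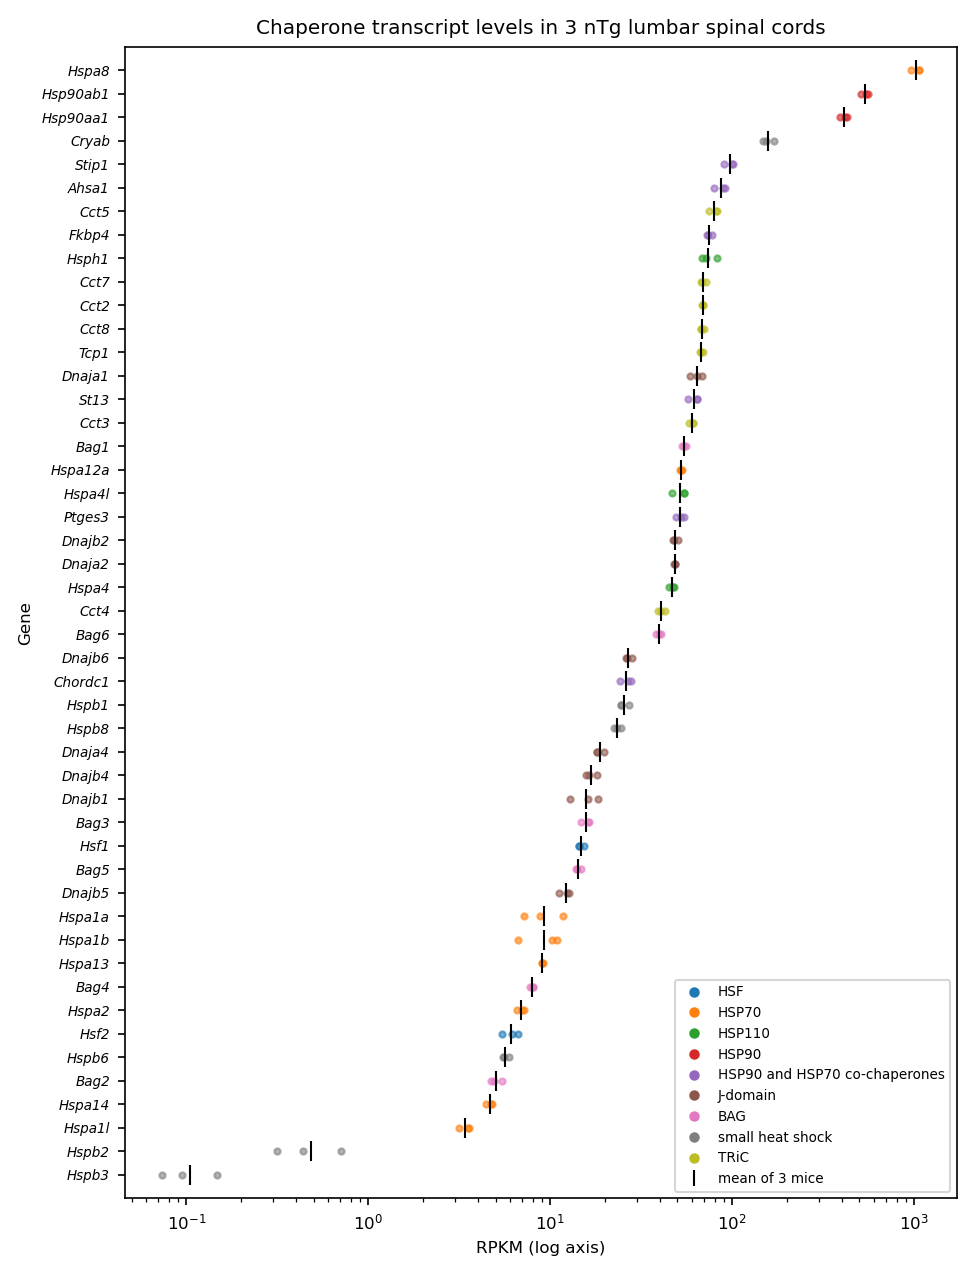
RPKM of the 48 chaperone genes in the 3 nTg libraries (points, log axis) with the mean (tick), ordered by the mean and coloured by role group. Hspa8, Hsp90ab1, Hsp90aa1 and Cryab stand above the rest.

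Hsf1, the master regulator of the heat shock response, fell in MFN2-R94Q. It was at 14.4, 15.3 and 14.3 RPKM in nTg, 11.2, 10.5 and 11.9 in MFN2-R94Q and 14.7, 13.5, 12.3, 12.1 and 13.0 in MFN2-R94Q:MFN1. All 3 MFN2-R94Q libraries lay below all 3 nTg libraries and also below all 5 libraries with MFN1, of which replicate 1 reached the nTg range. The log2 fold change was -0.37 (SE 0.0665, limma adjusted p = 0.0042) in MFN2-R94Q against nTg, 0.21 (SE 0.0595, limma adjusted p = 0.036) with MFN1 against MFN2-R94Q and -0.16 (SE 0.0595, limma adjusted p = 0.21) with MFN1 against nTg. The MFN1 call was lost in 5 of 11 runs that left out 1 library, namely without MFN2-R94Q replicate 1 or 2 or MFN2-R94Q:MFN1 replicate 1, 2 or 5, at 0.17 to 0.22. It was also lost with no filter on low values, without the trend and with only the 2 groups compared. Hsf2, a second factor that acts mostly in development, was at 6.09 ± 0.623 RPKM in nTg, 6.65 ± 0.451 in MFN2-R94Q (both n = 3) and 6.42 ± 0.278 with MFN1 (n = 5) and passed in no comparison (adjusted p of at least 0.24).

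The inducible HSP70 genes Hspa1a and Hspa1b had the largest log2 differences of all members in MFN2-R94Q against nTg. They lie side by side on chromosome 17 (34969190 to 34972156 and 34956436 to 34959238, minus strand, GENCODE M21 on GRCm38), and 58.8% of the 50-base stretches in the Hspa1a transcripts occur in Hspa1b, so the division of reads between them is uncertain. Hspa1a was at 11.8, 7.20 and 8.75 RPKM in nTg, 5.32, 3.12 and 3.58 in MFN2-R94Q and 6.90, 3.38, 3.27, 5.81 and 9.27 in MFN2-R94Q:MFN1. Hspa1b was at 10.9, 10.2 and 6.65 RPKM in nTg, 4.07, 0.840 and 1.39 in MFN2-R94Q and 4.98, 1.51, 1.58, 4.55 and 7.31 in MFN2-R94Q:MFN1. For both genes the 3 MFN2-R94Q libraries lay below all 3 nTg libraries, whereas the libraries with MFN1 spread over both ranges: replicates 2 and 3 lay as low as MFN2-R94Q, and replicate 5 reached the nTg range.

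Hspa1a changed by -1.12 (SE 0.316, limma adjusted p = 0.029) in MFN2-R94Q against nTg and Hspa1b by -2.08 (SE 0.512, limma adjusted p = 0.016). With MFN1 the differences from MFN2-R94Q were 0.40 and 0.79 (adjusted p = 0.37 and 0.27), and those from nTg were -0.72 and -1.29 (adjusted p = 0.24 and 0.19), so neither passed. The sum of both genes, which depends less on how reads were divided between them, though their lengths differ and some stretches are shared with Hspa1l, was 22.7, 17.4 and 15.4 RPKM in nTg, 9.39, 3.96 and 4.97 in MFN2-R94Q, and 11.9, 4.89, 4.84, 10.4 and 16.6 with MFN1. Fitted as 1 gene, which was decided once the values were known, the sum changed by -1.59 (SE 0.402, limma adjusted p = 0.018) in MFN2-R94Q against nTg. It did not pass with MFN1 against MFN2-R94Q (0.56, adjusted p = 0.32) or against nTg (-1.03, adjusted p = 0.19). In MFN2-R94Q against nTg the single-gene calls were lost in 4 runs for Hspa1a (those lacking MFN2-R94Q replicate 2 or 3, or nTg replicate 1 or 3) and in 3 for Hspa1b (those lacking MFN2-R94Q replicate 2, or nTg replicate 1 or 2). In those runs the log2 values were -1.14 to -0.93 and -1.9958 to -1.70, at adjusted p of up to 0.1 and 0.058. Both single-gene calls were also lost with no filter on low values. Hspa1a overlaps the gene model Gm20481 on the other strand, and whether counting used the strand is not given. The 10 immediate early genes, which also respond to handling, summed to 59.8 to 70.5 RPKM in nTg, 53.1 to 61.6 in MFN2-R94Q and 54.3 to 65.8 with MFN1, and their part in this result was not tested.

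Hspa1b had the largest coefficient of variation of the tested members in both transgenic groups, while Hspb2, near the filter, had the largest in nTg at 41.4%. The coefficient of variation among the 5 mice with MFN1 was 61.8% for Hspa1b and 44.1% for Hspa1a, against a median of 4.19% over the 47 tested members. In MFN2-R94Q it was 82.3% and 28.9%, against a median of 6.24%, and in nTg 24.6% and 25.2%, against 4.65%.

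**Figure D3:**
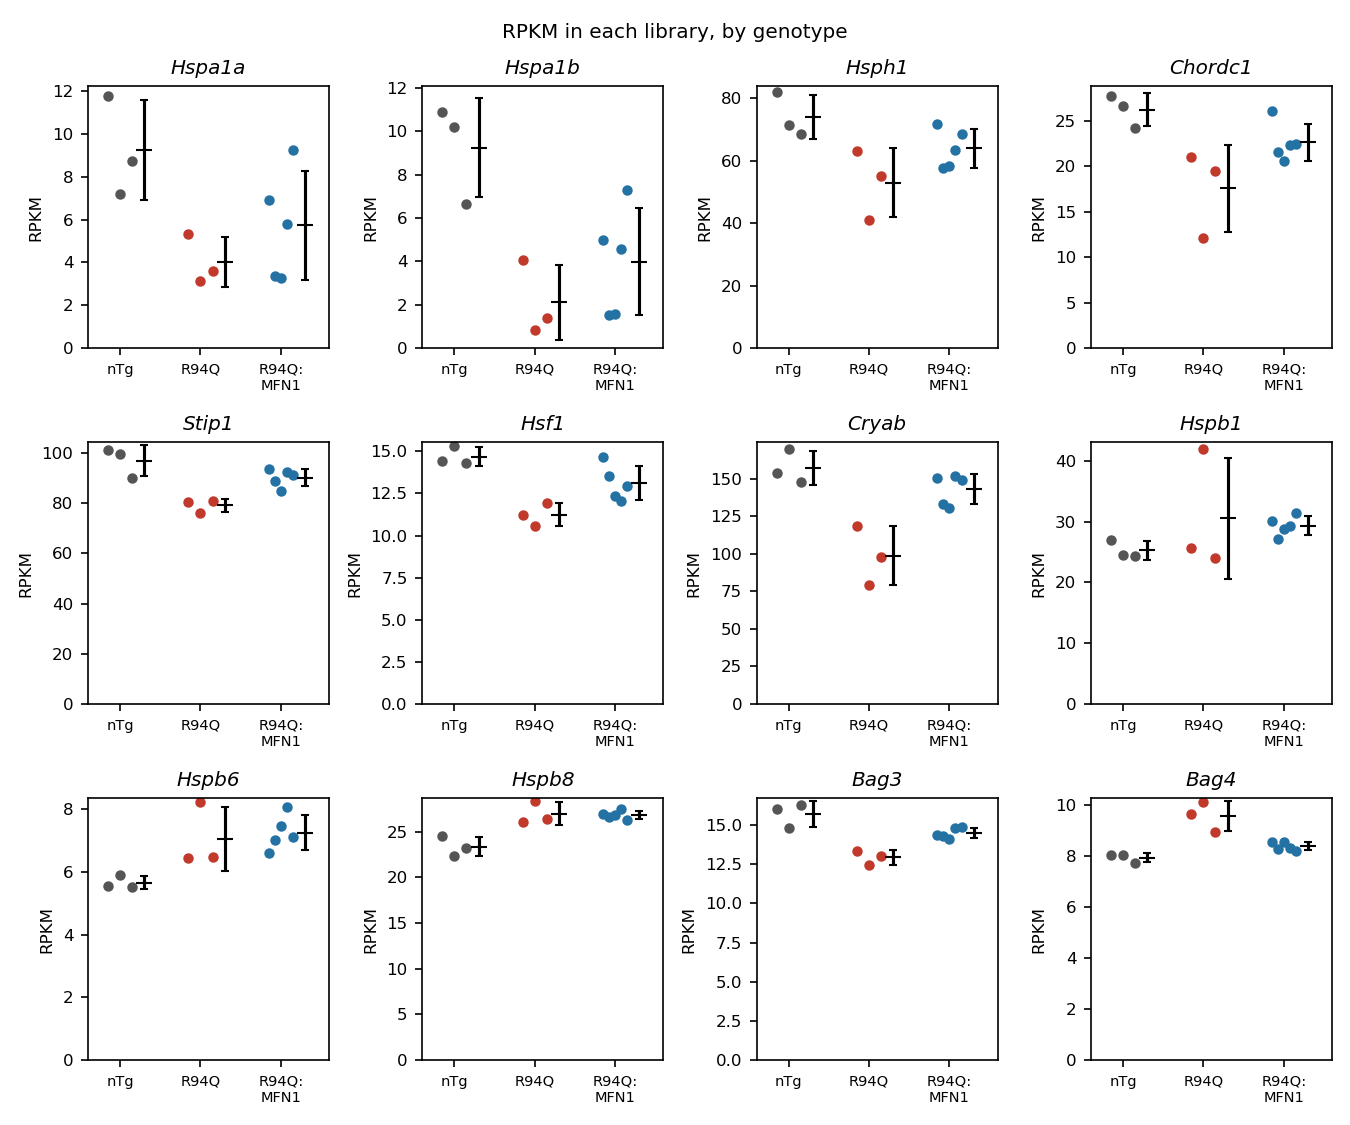
RPKM of 12 chaperone genes in each library (points) for nTg, MFN2-R94Q (R94Q) and MFN2-R94Q:MFN1 (R94Q:MFN1), with the mean and SD beside them; vertical axes start at 0. The MFN1 libraries of Hspa1a and Hspa1b span from the MFN2-R94Q range toward the nTg range, and Hspb6 and Hspb8 sit above nTg in both transgenic groups.

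Among the other HSP70 genes, the constitutive Hspa8 fell. Its level was 1056, 1064 and 963 RPKM in nTg, 922, 794 and 870.5 in MFN2-R94Q and 984, 916, 883, 966 and 985 in MFN2-R94Q:MFN1. The MFN2-R94Q libraries were all below nTg and overlapped those with MFN1, and the change was -0.25 (SE 0.0605, limma adjusted p = 0.014) in MFN2-R94Q against nTg. The call was lost without nTg replicate 2, at -0.23 (adjusted p = 0.058), and also under quantile normalization and with no filter on low values. With MFN1, Hspa8 did not pass against either group (0.14 against MFN2-R94Q and -0.12 against nTg). Hspa2, an HSP70 best known from spermatogenesis, was at 7.00, 7.175 and 6.57 RPKM in nTg, 6.57, 6.42 and 7.08 in MFN2-R94Q and 8.49, 7.29, 7.59, 7.28 and 7.71 in MFN2-R94Q:MFN1. The MFN1 group lay above both other groups and passed against MFN2-R94Q, at 0.18 (SE 0.0543, limma adjusted p = 0.043). That call was lost in 8 of 11 runs, each without 1 library other than nTg replicate 3, MFN2-R94Q replicate 3 or MFN2-R94Q:MFN1 replicate 4, at 0.15 to 0.20. Quantile normalization, median centring, array weights, no filter on low values, no trend and only the 2 groups compared each lost it too. Hspa1l, Hspa12a, Hspa13 and Hspa14 passed in no comparison, with log2 fold changes between -0.15 (Hspa1l) and 0.09 (Hspa13) in MFN2-R94Q against nTg.

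Of the HSP110 genes, which recharge HSP70 with ATP and help it take aggregates apart, Hsph1 and Hspa4 fell. Hsph1, the heat-inducible one, was at 82.0, 71.6 and 68.5 RPKM in nTg, 63.0, 41.1 and 55.0 in MFN2-R94Q and 72.0, 57.6, 58.4, 63.3 and 68.7 in MFN2-R94Q:MFN1. MFN2-R94Q lay below nTg in all libraries, MFN2-R94Q replicate 2 was the lowest of all 11, and MFN2-R94Q:MFN1 replicates 1 and 5 reached the nTg range. Its change was -0.49 (SE 0.129, limma adjusted p = 0.021) in MFN2-R94Q against nTg and did not pass with MFN1 (0.29 against MFN2-R94Q, adjusted p = 0.12). Without MFN2-R94Q replicate 2 it came to -0.32, and without nTg replicate 1 or 2 it was not called, at -0.42 and -0.52 respectively. The Hsph1 call was also lost with no filter on low values and with only the 2 groups compared. Hspa4 was at 47.5, 48.0 and 45.1 RPKM in nTg, 43.5, 35.4 and 41.5 in MFN2-R94Q and 47.2, 44.5, 45.5, 45.7 and 45.2 in MFN2-R94Q:MFN1. It changed by -0.23 (SE 0.0596, limma adjusted p = 0.022) in MFN2-R94Q and by 0.19 (SE 0.0533, limma adjusted p = 0.038) with MFN1 against MFN2-R94Q, with no overlap in either comparison. The first call was lost without nTg replicate 1 or 2, at -0.22 and -0.21. The second was lost without nTg replicate 1, MFN2-R94Q replicate 2 or any 1 library with MFN1, at 0.10 to 0.20. Both were lost under quantile normalization, with no filter on low values and with only the 2 groups compared. Median centring and a fit without the trend also lost the second. Without MFN2-R94Q replicate 2 the first came to -0.14 and the second to 0.10. Hspa4l passed in none (-0.12 in MFN2-R94Q against nTg, adjusted p = 0.22).

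Of the HSP90 genes, which mature kinases and steroid receptors, Hsp90ab1 fell. It was at 543, 554 and 513 RPKM in nTg, 503, 448 and 468 in MFN2-R94Q and 525.8, 474, 476, 510.2 and 531 in MFN2-R94Q:MFN1. MFN2-R94Q lay below nTg in all libraries and overlapped the MFN1 group, with a change of -0.18 (SE 0.0554, limma adjusted p = 0.037). This call was lost when MFN2-R94Q replicate 2 or 3, or nTg replicate 1 or 2, was left out, at -0.18 to -0.15, and under quantile normalization. It was also lost with no filter on low values, without the trend and with only the 2 groups compared. Hsp90aa1, the stress-inducible form, was at 428, 415 and 391 RPKM in nTg, 413, 346 and 368 in MFN2-R94Q and 412, 371, 388, 403 and 403 in MFN2-R94Q:MFN1. Its groups overlapped and it passed in no comparison (-0.13 in MFN2-R94Q against nTg, adjusted p = 0.13).

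The co-chaperones of HSP90 and HSP70 gave the largest share of called members of any role group in MFN2-R94Q against nTg, 5 of 6. Stip1, which hands clients from HSP70 to HSP90, was at 101, 99.7 and 89.95 RPKM in nTg, 80.5, 76.1 and 80.8 in MFN2-R94Q and 93.6, 89.0, 85.0, 92.5 and 91.2 in MFN2-R94Q:MFN1. Its MFN2-R94Q libraries lay below those of both other groups. Ahsa1, the activator of the HSP90 ATPase, was at 91.1, 88.7 and 79.7 RPKM in nTg, 72.5, 69.4 and 73.5 in MFN2-R94Q and 79.4, 79.2, 75.7, 79.7 and 82.7 in MFN2-R94Q:MFN1. Here too MFN2-R94Q lay below both other groups, while nTg replicate 3 lay within the MFN1 range. Fkbp4, an HSP90-bound immunophilin of steroid receptor complexes, was at 77.3, 73.7 and 73.0 RPKM in nTg, 65.1, 58.3 and 62.8 in MFN2-R94Q and 71.9, 68.1, 62.1, 70.7 and 74.0 in MFN2-R94Q:MFN1. Its MFN2-R94Q libraries lay below nTg, and replicates 1 and 3 lay within the MFN1 range.

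In MFN2-R94Q against nTg Stip1 changed by -0.29 (SE 0.0488, limma adjusted p = 0.0034), Ahsa1 by -0.27 (SE 0.0483, limma adjusted p = 0.0046) and Fkbp4 by -0.27 (SE 0.0589, limma adjusted p = 0.01). These 3 calls held in each of the 11 runs that left out 1 library and under every other setting tried, except that Fkbp4 was lost at a threshold of 0.01. With MFN1 against MFN2-R94Q, Stip1 rose by 0.19 (SE 0.0436, limma adjusted p = 0.017) and Ahsa1 by 0.14 (SE 0.0432, limma adjusted p = 0.047). The Stip1 rise was lost without MFN2-R94Q replicate 2, at 0.16 (adjusted p = 0.063). That of Ahsa1 was lost in 8 of 11 runs, at 0.12 to 0.16, and was kept without nTg replicate 1 or 3 or MFN2-R94Q:MFN1 replicate 3. It was also lost under quantile normalization, under median centring, with no filter on low values and without the trend.

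Chordc1, an HSP90 partner with heat-inducible expression, was at 27.8, 26.6 and 24.2 RPKM in nTg, 21.1, 12.1 and 19.5 in MFN2-R94Q and 26.1, 21.6, 20.6, 22.3 and 22.5 in MFN2-R94Q:MFN1. MFN2-R94Q replicate 2 held the least of any library, and MFN2-R94Q:MFN1 replicate 1 alone lay in the nTg range. Its change of -0.60 (SE 0.152, limma adjusted p = 0.018) in MFN2-R94Q against nTg came to -0.36 without MFN2-R94Q replicate 2, and was lost without nTg replicate 1 or 2, at -0.56 and -0.59. The Chordc1 call was also lost with no filter on low values and with only the 2 groups compared. Ptges3, the HSP90 client-release co-chaperone p23, passed at -0.19 (SE 0.0607, limma adjusted p = 0.043), a call that 7 of 11 runs lost, at -0.20 to -0.13. Those were the runs without nTg replicate 1 or 2, MFN2-R94Q replicate 2 or 3, or MFN2-R94Q:MFN1 replicate 1, 3 or 5. The Ptges3 call was also lost under quantile normalization, with no filter on low values, without the trend and with only the 2 groups compared. St13, the HSP70-interacting protein Hip, did not pass (-0.16, adjusted p = 0.091). None of Chordc1, Ptges3, Fkbp4 and St13 passed with MFN1 against MFN2-R94Q, at 0.39, 0.14, 0.16 and 0.13.

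**Figure D4:**
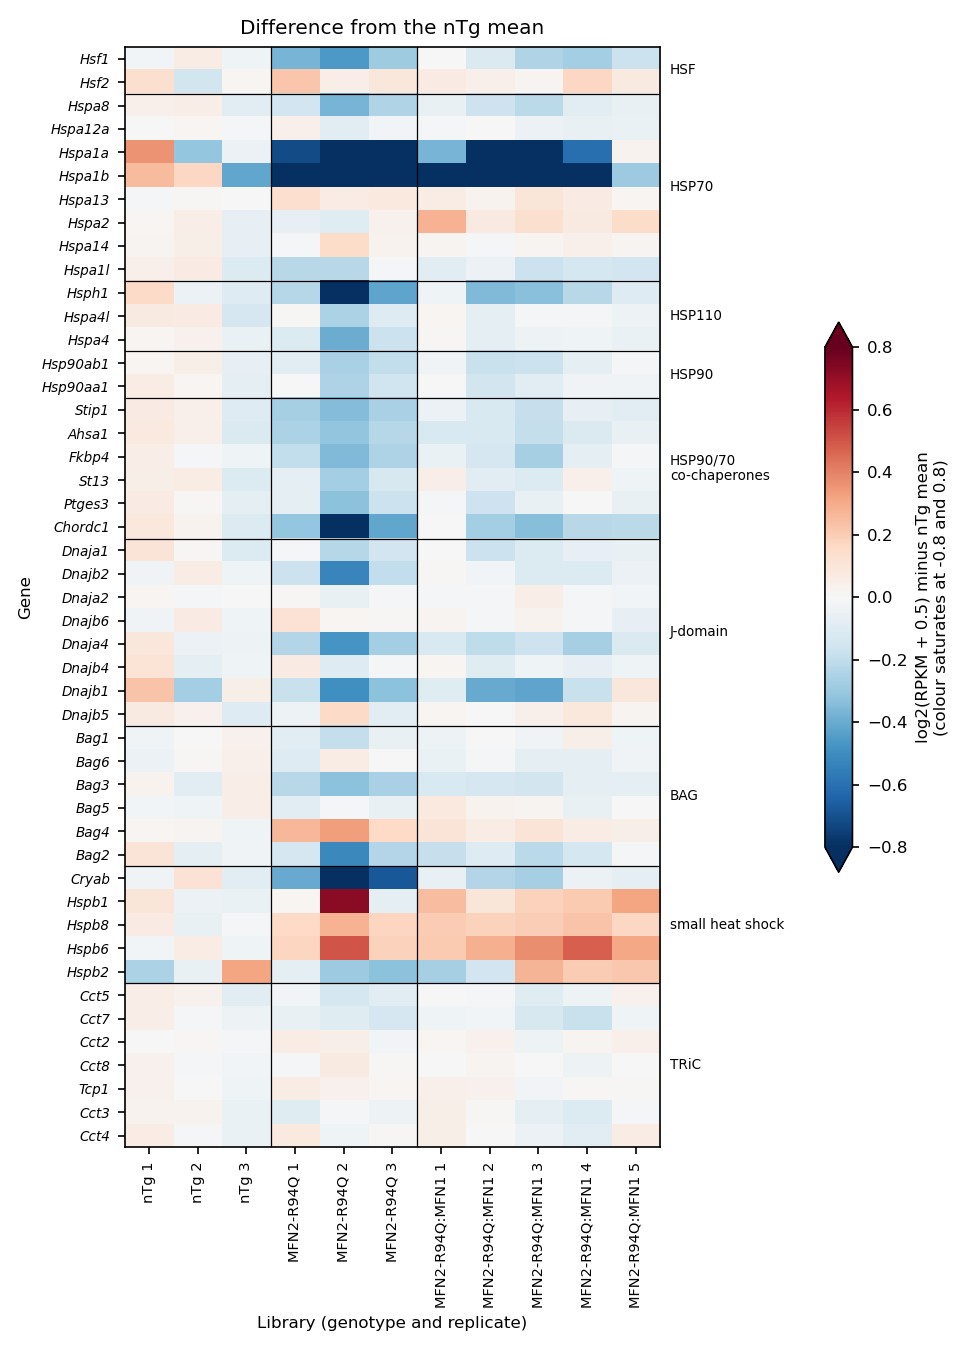
Difference of each library from the nTg mean on the log2(RPKM + 0.5) scale for the 47 tested chaperone genes (rows, in role groups) in all 11 libraries (columns); blue is lower and red higher, and colours saturate at the ends of the scale. MFN2-R94Q replicate 2 is the darkest blue column, the TRiC rows are pale throughout, and Hspb6 and Hspb8 are red in both transgenic groups.

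Of the J-domain genes, whose products load clients onto HSP70, Dnaja4 and Dnajb2 fell. Dnaja4 was at 19.8, 18.0 and 18.1 RPKM in nTg, 15.8, 13.3 and 15.4 in MFN2-R94Q and 17.1, 16.1, 16.6, 15.4 and 17.2 in MFN2-R94Q:MFN1. It lay below nTg in every library of both transgenic groups, with a change of -0.33 (SE 0.0636, limma adjusted p = 0.0063) in MFN2-R94Q and of -0.17 (SE 0.0569, limma adjusted p = 0.16) with MFN1, which did not pass. Dnaja4 overlaps Wdr61 on the other strand. Dnajb2, a neuronal J protein that is itself a neuropathy gene, was at 47.7, 50.5 and 47.5 RPKM in nTg, 43.1, 33.5 and 42.2 in MFN2-R94Q and 48.9, 47.9, 44.9, 44.9 and 46.9 in MFN2-R94Q:MFN1. MFN2-R94Q lay below both other groups, and those overlapped. Its change was -0.30 (SE 0.0751, limma adjusted p = 0.018) in MFN2-R94Q and 0.24 (SE 0.0671, limma adjusted p = 0.033) with MFN1 against MFN2-R94Q. Without MFN2-R94Q replicate 2 these came to -0.18 (still called) and 0.13 (not called). The first was lost without nTg replicate 2, at -0.27, and the second also without MFN2-R94Q:MFN1 replicate 1, 2 or 5, at up to 0.24. Both were lost with no filter on low values and with only the 2 groups compared. Quantile normalization and a fit without the trend also lost the second.

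Dnajb1, the heat-inducible partner of HSP70, was at 18.3, 12.8 and 16.1 RPKM in nTg, 13.7, 10.9 and 12.3 in MFN2-R94Q and 14.5, 11.7, 11.5, 13.7 and 16.6 in MFN2-R94Q:MFN1. The groups overlapped and it did not pass (-0.33 in MFN2-R94Q against nTg, SE 0.140, limma adjusted p = 0.11). As for Hspa1a, replicates 2 and 3 were the lowest with MFN1 and replicate 5 the highest. Dnaja1, Dnaja2, Dnajb4, Dnajb5 and Dnajb6 passed in no comparison, with log2 fold changes between -0.13 (Dnaja1) and 0.05 (Dnajb6) in MFN2-R94Q against nTg.

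The BAG genes, whose products release nucleotide from HSP70, went both ways. Bag3, which links HSP70 and HSPB8 to autophagy of misfolded proteins, was at 16.1, 14.8 and 16.3 RPKM in nTg, 13.4, 12.4 and 13.0 in MFN2-R94Q and 14.4, 14.3, 14.1, 14.8 and 14.9 in MFN2-R94Q:MFN1. MFN2-R94Q lay below both other groups, with changes of -0.27 (SE 0.0449, limma adjusted p = 0.0033) against nTg and, with MFN1, of 0.16 (SE 0.0402, limma adjusted p = 0.024) against MFN2-R94Q. The second was lost without MFN2-R94Q replicate 2 or MFN2-R94Q:MFN1 replicate 5, at 0.13 and 0.15. Bag4, the silencer of death domains on TNF receptors, was at 8.02, 8.04 and 7.71 RPKM in nTg, 9.64, 10.1 and 8.92 in MFN2-R94Q and 8.53, 8.28, 8.54, 8.30 and 8.20 in MFN2-R94Q:MFN1. It lay higher in MFN2-R94Q than in both other groups, by 0.25 (SE 0.0472, limma adjusted p = 0.005) over nTg, and with MFN1 it was lower than in MFN2-R94Q, with a log2 fold change of -0.18 (SE 0.0422, limma adjusted p = 0.018). Without MFN2-R94Q replicate 2 the second was not called, at -0.14. No other member was higher in MFN2-R94Q and lower again with MFN1.

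Bag2, an inhibitor of the ubiquitin ligase CHIP, was at 5.43, 4.73 and 4.91 RPKM in nTg, 4.53, 3.35 and 4.18 in MFN2-R94Q and 4.36, 4.63, 4.26, 4.51 and 4.99 in MFN2-R94Q:MFN1. MFN2-R94Q lay below nTg and overlapped the MFN1 group, with a change of -0.30 (SE 0.0895, limma adjusted p = 0.037). The call was lost without any 1 nTg library, MFN2-R94Q replicate 2 or MFN2-R94Q:MFN1 replicate 2, at -0.34 to -0.19, the smallest being that without MFN2-R94Q replicate 2. No filter on low values and only the 2 groups compared also lost the Bag2 call. Bag1, Bag5 and Bag6 did not pass in any comparison, at -0.11, -0.06 and -0.02 in MFN2-R94Q against nTg. Bag1, singled out after its values were seen, lay lower in all 3 MFN2-R94Q libraries than in any other library, at 51.0, 47.6 and 52.2 RPKM against 53.2, 54.3 and 55.6 in nTg and 52.9, 54.3, 53.2, 56.2 and 53.0 with MFN1.

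The small heat shock genes split. Cryab, which encodes alphaB-crystallin and is strongly expressed by oligodendrocytes, had the largest fall of the members after Hspa1a and Hspa1b. It lies on chromosome 9 from 50751325 to 50756636 (plus strand, GRCm38) and overlaps Hspb2 on the minus strand. Its level was 154, 169.8 and 148 RPKM in nTg, 118, 79.2 and 98.0 in MFN2-R94Q and 151, 133, 130.5, 152 and 149 in MFN2-R94Q:MFN1. The MFN2-R94Q libraries lay below every other library, and the MFN1 libraries overlapped nTg. The change was -0.69 (SE 0.112, limma adjusted p = 0.0033) in MFN2-R94Q against nTg, 0.55 (SE 0.101, limma adjusted p = 0.006) with MFN1 against MFN2-R94Q and -0.14 (SE 0.101, limma adjusted p = 0.56) with MFN1 against nTg. Both calls held under the settings tried, and without MFN2-R94Q replicate 2 they came to -0.54 and 0.40. Of 10 oligodendrocyte markers, 5 were lower in MFN2-R94Q than in nTg and 7 were higher with MFN1 than in MFN2-R94Q. Their summed level was 4008 to 4333 RPKM in nTg, 3471 to 3845 in MFN2-R94Q and 4138 to 4472 with MFN1, none being at 0, and their part in the Cryab result was not tested.

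Hspb8, the partner of BAG3 and a neuropathy gene, was higher in both transgenic groups. It was at 24.5, 22.4 and 23.2 RPKM in nTg, 26.1, 28.4 and 26.4 in MFN2-R94Q and 26.9, 26.6, 26.8, 27.4 and 26.2 in MFN2-R94Q:MFN1. Every transgenic library lay above every nTg library, by 0.20 (SE 0.0420, limma adjusted p = 0.0083) in MFN2-R94Q and 0.19 (SE 0.0376, limma adjusted p = 0.014) with MFN1. The difference between the transgenic groups was -0.01 (SE 0.0376, limma adjusted p = 0.92). Without nTg replicate 2 or 3 the MFN1 call was lost, at 0.16 and 0.19. The MFN2-R94Q call on Hspb8 was lost with only the 2 groups compared. Hspb6, a small heat shock gene best known from muscle, was at 5.56, 5.91 and 5.53 RPKM in nTg, 6.45, 8.23 and 6.49 in MFN2-R94Q and 6.62, 7.01, 7.47, 8.08 and 7.12 in MFN2-R94Q:MFN1. Again every transgenic library lay above nTg, by 0.29 (SE 0.0858, limma adjusted p = 0.037) in MFN2-R94Q and 0.33 (SE 0.0767, limma adjusted p = 0.042) with MFN1. The MFN2-R94Q value came to 0.18 without replicate 2 (adjusted p = 0.11), and it was also lost without any 1 nTg library or MFN2-R94Q:MFN1 replicate 5. No filter on low values and only the 2 groups compared lost this call too. The MFN1 call on Hspb6 was lost without any 1 nTg library or MFN2-R94Q:MFN1 replicate 2, 3, 4 or 5, at 0.29 to 0.36, and under quantile normalization or median centring. It was lost as well with no filter on low values and without the trend. Hspb6 overlaps Proser3 and Lin37 on the other strand.

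The 7 mural and smooth muscle markers summed to 35.1 to 37.0 RPKM in nTg, 31.1 to 37.1 in MFN2-R94Q and 38.8 to 40.3 with MFN1, with none of the 6 tested called by limma in any comparison. At an unadjusted p under 0.05, 2 of the 6 were higher in MFN2-R94Q against nTg (15.9% of all genes). With MFN1, 1 was higher against MFN2-R94Q (19.1% of all genes) and 3 against nTg (10.0%). The 8 astrocyte markers summed to 711 to 730.0, 813 to 838 and 902 to 964 RPKM in the same order. Gfap carried the rise in MFN2-R94Q: without it, a sum added after the values were seen, the other 7 came to 439.4 to 454.8 RPKM in nTg, 416.4 to 449.3 in MFN2-R94Q and 450.4 to 467.0 with MFN1, so that both transgenic groups overlapped nTg. Gfap and Gjb6 were called higher and Gja1 lower in MFN2-R94Q against nTg, and the part of these markers in the Hspb6 and Hspb8 results was not tested. Neither list had a marker at 0 in all libraries.

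Hspb1, the HSP27 gene of motor neurons and glia, was at 27.1, 24.5 and 24.4 RPKM in nTg, 25.6, 42.0 and 24.0 in MFN2-R94Q and 30.1, 27.1, 28.9, 29.3 and 31.5 in MFN2-R94Q:MFN1. MFN2-R94Q replicate 2 alone was high in its group, while the MFN1 libraries all lay above nTg, the lowest by under 0.1 RPKM. It passed in no comparison (0.22 in MFN2-R94Q and 0.21 with MFN1 against nTg, adjusted p = 0.31 and 0.5). Hspb2 was at 0.486 ± 0.202 RPKM in nTg and 0.523 ± 0.167 with MFN1, did not pass, and shares its locus with the far more abundant Cryab, so its reads are uncertain.

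The TRiC chaperonin, a double ring that folds actin and tubulin, had no called member. None of its 7 listed subunit genes, Tcp1, Cct2, Cct3, Cct4, Cct5, Cct7 and Cct8, passed the limma threshold in any comparison, and at an unadjusted p under 0.05 none did either. Of all genes, 15.9% were higher and 18.5% lower at that unadjusted p in MFN2-R94Q against nTg. Log2 fold changes in MFN2-R94Q against nTg ran from -0.10 (Cct7) to 0.03 (Tcp1), with standard errors of at most 0.046. Tcp1, for instance, was at 67.7 ± 1.66 RPKM in nTg (n = 3), 69.4 ± 1.05 in MFN2-R94Q (n = 3) and 68.4 ± 1.16 with MFN1 (n = 5). Group means of the subunits spanned 40.8 (Cct4) to 79.2 RPKM (Cct5) in nTg, 41.2 to 74.5 in MFN2-R94Q and 40.6 to 77.8 with MFN1, a ratio of 1.94, 1.81 and 1.92.

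In MFN2-R94Q the falls shared their lowest library. Of the 17 members that fell, replicate 2 was the lowest of the 3 MFN2-R94Q libraries in all 17. Replicate 1 was the highest in 14 and replicate 3 in 3. Replicate 2 also stood apart on the first principal component of all tested genes, and the order was not counted over all genes. Among the 5 mice with MFN1, replicate 3 was the lowest for 9 of these 17 genes, replicate 2 for 5 and replicate 4 for 3, and replicates 1 and 5 were the highest for 6 and 9. In nTg, replicate 3 was the lowest for 13. The 14 glucocorticoid response genes summed to 624 to 724 RPKM in nTg, 859.9, 1857 and 1105 in MFN2-R94Q, and 704 to 861 with MFN1. MFN2-R94Q replicate 2 was thus the highest in that sum where it was the lowest of its group in the 17 members that fell, and the part of this in the falls was not tested. The metallothionein genes Mt1 and Mt2 made up the larger part of its sum, at 779 and 530 RPKM. In MFN2-R94Q against nTg, 13 of the 14 genes had a positive log2 fold change and 1 a negative one. Tsc22d3 averaged 64.1 RPKM in nTg and 64.3 in MFN2-R94Q.

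Outside the set, 42 further genes of the pathway had been listed, of which 40 were tested. In MFN2-R94Q against nTg, 6 were lower (15.0%, against 10.4% of all genes) and 1 was higher (2.5%, against 7.5%). With MFN1, 3 were higher (7.5%, against 9.55% of all genes) and 1 lower (2.5%, against 3.33%) than in MFN2-R94Q, shares near or below those of all genes. Against nTg 0 were called by limma, where 2.31% of all genes were. At an unadjusted p under 0.05, 2 were lower and 0 higher, against 5.49% and 10.0% of all genes. Tomm34, a co-chaperone that binds HSP70 and HSP90, was at 25.6, 27.1 and 24.7 RPKM in nTg, 22.4, 20.6 and 22.7 in MFN2-R94Q and 24.5, 23.8, 23.2, 23.6 and 24.3 in MFN2-R94Q:MFN1. It was lower in MFN2-R94Q than in nTg, with no overlap and a log2 fold change of -0.23 (SE 0.0450, limma adjusted p = 0.0059). Hspe1, the mitochondrial co-chaperonin and an HSF1 target, was at 58.4, 59.2 and 55.7 RPKM in nTg, 52.7, 45.5 and 46.6 in MFN2-R94Q and 56.1, 52.6, 53.1, 50.1 and 53.4 in MFN2-R94Q:MFN1. Its MFN2-R94Q libraries lay below nTg, with a change of -0.26 (SE 0.0540, limma adjusted p = 0.0083).

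Serpinh1, the collagen chaperone HSP47 and a heat shock gene, was at 8.58, 7.32 and 7.26 RPKM in nTg, 6.45, 4.41 and 5.29 in MFN2-R94Q and 8.20, 6.85, 6.18, 7.54 and 8.04 in MFN2-R94Q:MFN1. It was lower in MFN2-R94Q than in nTg with no overlap, at -0.49 (SE 0.121, limma adjusted p = 0.016), and higher with MFN1 than in MFN2-R94Q, at 0.43 (SE 0.108, limma adjusted p = 0.024), where MFN2-R94Q:MFN1 replicate 3 lay within the MFN2-R94Q range. Nudc, an HSP90 co-chaperone, fell by less in MFN2-R94Q, at -0.13 (SE 0.0340, limma adjusted p = 0.02). Fkbp5, an HSP90 co-chaperone that is also a glucocorticoid target, was the 1 higher gene of the 40, at 8.54, 7.41 and 6.92 RPKM in nTg, 10.3, 29.3 and 11.8 in MFN2-R94Q and 9.22, 7.60, 7.68, 7.35 and 8.14 in MFN2-R94Q:MFN1. MFN2-R94Q replicate 2 held the highest value, with a change of 0.96 (SE 0.269, limma adjusted p = 0.027) against nTg and -0.90 (SE 0.240, limma adjusted p = 0.03) with MFN1 against MFN2-R94Q. Hsbp1, which binds heat shock factor 1, was higher with MFN1 than in MFN2-R94Q, by 0.11. None of the 8 other chaperonin and prefoldin genes passed with limma in any comparison. At an unadjusted p under 0.05, 2 were lower in MFN2-R94Q against nTg (18.5% of all genes). Also at that level, 1 was higher with MFN1 against MFN2-R94Q (19.1% of all genes).

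Beside the calls, the promoters were read once more. Of the 17 members that fell in MFN2-R94Q, 13 had a promoter window and 7 of these held the motif of 2 units: Bag3, Chordc1, Dnaja4, Fkbp4, Hspa1a, Hspa1b and Hsph1. Both higher members with a window, Hspb6 and Hspb8, held it too. Of the 27 members not called, 22 had a window and 6 held it: Cct2, Cct5, Dnaja1, Dnajb4, Dnajb6 and Hspb1. Over all genes with a window the share was 17.0%. The share of promoters with the motif is a description of these windows and carries no test.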

How the data were processed

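Expression was measured in 11 lumbar spinal cord libraries, each taken as 1 mouse because the series' design text counts mice. The authors deposited 1 table of RPKM per gene; TopHat, Partek 7.17.0918 and the mm10 build are named in the submitters' processing notes, without their roles, and whether counting used the strand is not stated there. RPKM depends on the gene model's length and on the total of each library. Library depth was recovered from the steps between low values of short genes, of which 94.3% to 97.8% of the values checked came out within 0.02 of a whole read.

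Genes that reached 0.5 RPKM in 3 or more libraries were tested on log2(RPKM + 0.5), so that fold changes of low genes are understated. limma 3.58.1 in R 4.3.3, with a trended prior and genotype as the only term, was fitted to all 11 libraries, two-sided, with Benjamini-Hochberg adjustment over all tested genes and a threshold of 0.05. The fit was tested on simulated data first. Of the table's names, 25 had been turned into dates and were not matched to any member. Replicate numbers follow the order of deposit and pair nothing. No library repeated another of its group: pairs within a group differed by an SD of 0.126 to 0.238 on the log2 scale. Pairs from different groups were not compared in this way.

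The members, the other pathway genes and the marker lists were chosen with earlier results of these data known. Values in every library are given for members called at least once (at most 4 per role group, by p) and for 12 defining heat shock genes, and up to 4 other pathway genes per comparison are named by p. The values of 1 of these are not reported here. Other pseudocounts, filters, scalings, priors, weights, thresholds and left-out libraries were tried.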

Additional observations from a re-analysis of the deposited data

Results flagged for a closer look

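Among the 48 members in the 5 mice with MFN1, 2 genes had a library far from the others by Dixon's test, which at its 95% level marks about 1 in 20 groups by chance. Both were in MFN2-R94Q:MFN1 replicate 3. Cct2, a TRiC subunit gene, was at 67.03 RPKM there, and the nearest library was at 69.7 (a gap of 0.728 of the group's range, against a critical value of 0.71). Dnaja2, a J-domain gene, was at 50.12 RPKM there, and the nearest was at 47.91 (a gap of 0.867). Cct2 and Dnaja2 were called in none of the comparisons.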

How the results depend on the processing

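No called member changed direction under any setting. In MFN2-R94Q against nTg, the 17 lower members became 7 with no filter on low values, 10 with only the 2 groups compared and 6 at a threshold of 0.01, while the share of all genes called lower went from 10.4% to 5.19%, 4.06% and 3.47%. The 3 higher became 1 with only the 2 groups, while the share of all genes called higher went from 7.5% to 1.83%. Array weights gave 22 lower (14.0% of all genes) and a threshold of 0.1 gave 19 (15.3%). Leaving out each library in turn gave 8 to 20 lower and 2 to 3 higher. The 8 lower came without nTg replicate 2 (5.22% of all genes lower) and the 20 without MFN2-R94Q replicate 1 (11.1%). Over these runs 3.25% to 8.81% of all genes were higher. With MFN1 against MFN2-R94Q, the 8 higher became 3 with no filter, 4 under quantile normalization, 5 under median centring, 3 without the trend, 4 with only the 2 groups and 1 at 0.01, and the 1 lower became 0 at 0.01. The share of all genes called higher went from 9.55% to 4.29%, 7.0%, 7.63%, 8.03%, 7.19% and 2.53% in that order. The share called lower went from 3.33% to 0.342% at 0.01. Array weights and a threshold of 0.1 each gave 12 higher (15.7% and 14.3% of all genes). Left-out libraries gave 2 (without MFN2-R94Q replicate 2) to 11 (without MFN2-R94Q replicate 1) higher and 0 to 1 lower. In those 2 runs 5.08% and 10.3% of all genes were higher, and 1.08% and 5.21% lower. With MFN1 against nTg, the 2 higher became 1 with no filter, under quantile normalization, under median centring and without the trend, 0 at 0.01, and 3 with only the 2 groups. The share of all genes called higher went from 2.09% to 1.27%, 1.48%, 1.87%, 2.29%, 1.03% and 3.2% in that order. The 0 lower became 1 with array weights (0.69% of all genes). Left-out libraries gave 0 to 3 higher (1.26% to 3.34% of all genes) and 0 to 1 lower (0.0628% to 0.775%). Member promoters with the motif went from 16 to 3 with 3 units in a row, since that motif is stricter. For the other changes the cause was not tested. Of 31 member calls, 9 held in every setting at the threshold of 0.05: Ahsa1, Bag3, Bag4, Cryab, Dnaja4, Fkbp4, Hsf1 and Stip1 in MFN2-R94Q against nTg, and Cryab with MFN1 against MFN2-R94Q. Of these, Fkbp4 was lost at 0.01. No paired analysis was possible because the labels name no pairing between mice of different groups. Groups of 3 to 5 mice and values near the filter, such as those of Hspb2, limit the precision.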
